A study of Homo sapiens with 12 samples.

Results

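Glycolysis and the genes induced with it under low oxygen were followed through LKB1 knockdown in 3 intrahepatic cholangiocarcinoma (ICC) cell lines, a cancer of the bile ducts inside the liver. A list of 35 genes was taken by symbol, covering glucose uptake, each step of glycolysis, the enzymes that set its pace, the fate of pyruvate and lactate, and 10 genes known for induction by hypoxia. Of these, 34 had a row in the table of 18815 rows, and all 34 passed the filter on low values that left 16146 genes for testing. PFKL, the liver-type subunit of phosphofructokinase, was not analysed here.

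The lines were HuH-28, RBE and SSP-25, established human ICC lines, and RNA was taken 48 h after transient transfection. Cells of each line were given LKB1-specific siRNA, directed at the kinase encoded by STK11, or a scramble control siRNA, with 2 libraries in each of the 6 groups. HuH-28 was grown in MEM and both other lines in RPMI1640, all with fetal bovine serum, so line and medium cannot be told apart in any contrast of HuH-28 with another line. The study numbers the libraries of a group as separate tests, and no source used here says whether these were separate cultures, so the p-values measure the spread between these libraries, which may be technical, and with 2 libraries against 2 the smallest two-sided p of an exact test is 0.33.

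The unit is the authors' normalized reads per kilobase, called signal here. It is comparable between genes, since length has been divided out, and the library sums ran from 9910000 to 11730000. Whole reads were not recoverable, so the read depth behind a value is unknown. The STK11 signal was 698 and 600.4 in the HuH-28 control libraries and 222.6 and 206.5 with LKB1 siRNA. It was 484.9 and 429.8 against 130 and 155.7 in RBE, and 463.6 and 459.5 against 61.81 and 72.84 in SSP-25. In every line both knockdown libraries lay below both controls, and the log2 fold change of STK11 was -1.59 for HuH-28, -1.68 for RBE and -2.77 for SSP-25. KRT7, a bile duct keratin, was present in all 3 lines, with mean control signals of 2437, 14720 and 5904. HuH-28 went against part of its label, with EPCAM at 0.956 and KRT19 at 10.44 in controls while the stromal matrix genes DCN and LUM stood at 2499 and 2374. The summed signal of the 3 fibroblast markers looked at was 4482 to 5321 in HuH-28 controls, 9.427 to 10.49 in RBE and 52.5 to 55.56 in SSP-25, and the part of this difference in the contrasts of HuH-28 with other lines was not tested. PDGFRB, the third of these markers, was 28.71 and 26.89 in HuH-28 controls and 25.47 and 26.07 in SSP-25 controls. The mean sum was 4901 with control siRNA and 4167 with LKB1 siRNA for HuH-28, 9.96 and 6.758 for RBE, and 54.03 and 120.9 for SSP-25, where mean PDGFRB was 25.77 and 103.2, and its part in the knockdown results was not tested. The mean sum of 7 biliary markers, of which 1 was under 1 in HuH-28 controls, was 9902 with control siRNA and 13260 with LKB1 siRNA for HuH-28, 49210 and 39560 for RBE, and 15170 and 20820 for SSP-25, and its part in the results was not tested. In bulk RNA, fewer cells that express a gene and less of its RNA per cell cannot be told apart.

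Glycolysis breaks glucose down to pyruvate in the cytosol. Glucose enters through GLUT transporters, is trapped by hexokinase, committed by phosphofructokinase, and split into triose phosphates, from which the later enzymes gain ATP. Lactate dehydrogenase then turns pyruvate into lactate, which leaves the cell through monocarboxylate transporters. The pyruvate dehydrogenase kinases hold pyruvate back from oxidation inside the mitochondria. Hypoxia-inducible factor (HIF) raises many of these genes when oxygen is low by binding short promoter elements with the core ACGTG. LKB1 is the upstream kinase of AMPK, the energy sensor that restrains growth when ATP falls.

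Of the 30 members matched to the RefSeq promoter windows of GRCh38.p14 (250 bases before to 50 after the gene's start; SLC2A3, SLC16A1, BNIP3L and NDRG1 were not matched), 13 held ACGTG on either strand, or 43.3%. The share was 21.6% over all 27303 promoters of the same length. The palindrome CACGTG, which contains ACGTG on both strands, stood in 7 of the 30 (23.3%) and in 7.44% of all promoters. These counts describe letters in a window, not bound sites. Promoters of 4 of the 13 members with ACGTG are shown, picked by hand without a set rule. Of these HK2, LDHA and CITED2 rose with LKB1 siRNA in more than 1 line and BNIP3 moved in opposite directions. Among the 13 members not shown, ENO2 and BHLHE40 rose in HuH-28 and RBE. GPI, ALDOA, PGK1 and ANKRD37 rose in HuH-28 alone, and PDK3 in SSP-25 alone. GAPDH fell in RBE and ALDOC in HuH-28. A link between ACGTG and the change was not tested. Capitals mark ACGTG read on either strand (CACGT is its reverse complement), so that CACGTG in capitals is the palindrome. HK2 lies at chr2:74833877-74834176 on the plus strand, LDHA at chr11:18394313-18394612 on the plus strand, CITED2 at chr6:139374599-139374898 on the minus strand, and BNIP3 at chr10:131981874-131982173 on the minus strand.
HK2: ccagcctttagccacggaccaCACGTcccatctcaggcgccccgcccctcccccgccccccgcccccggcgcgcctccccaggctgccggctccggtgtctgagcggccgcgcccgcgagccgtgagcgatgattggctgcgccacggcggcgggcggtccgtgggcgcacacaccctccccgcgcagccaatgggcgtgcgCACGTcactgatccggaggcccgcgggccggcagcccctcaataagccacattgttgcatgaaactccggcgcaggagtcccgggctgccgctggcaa
LDHA: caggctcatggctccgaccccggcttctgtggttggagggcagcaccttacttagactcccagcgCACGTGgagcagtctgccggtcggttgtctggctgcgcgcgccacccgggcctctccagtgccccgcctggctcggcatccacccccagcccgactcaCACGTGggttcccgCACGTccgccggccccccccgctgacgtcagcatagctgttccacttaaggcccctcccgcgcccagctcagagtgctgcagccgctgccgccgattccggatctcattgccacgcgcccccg
CITED2: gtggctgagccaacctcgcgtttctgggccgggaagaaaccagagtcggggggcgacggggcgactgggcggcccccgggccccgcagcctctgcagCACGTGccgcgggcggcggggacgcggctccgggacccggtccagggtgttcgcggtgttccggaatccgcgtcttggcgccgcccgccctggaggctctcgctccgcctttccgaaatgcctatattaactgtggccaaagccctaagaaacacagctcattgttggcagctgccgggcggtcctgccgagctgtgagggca
BNIP3: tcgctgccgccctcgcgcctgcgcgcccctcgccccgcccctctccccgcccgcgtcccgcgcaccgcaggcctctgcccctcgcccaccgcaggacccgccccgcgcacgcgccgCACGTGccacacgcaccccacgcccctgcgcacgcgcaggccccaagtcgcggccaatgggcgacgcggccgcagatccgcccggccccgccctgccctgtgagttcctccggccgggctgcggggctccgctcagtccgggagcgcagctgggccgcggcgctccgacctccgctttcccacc
The promoter windows of HK1, PFKFB4 and SLC2A1 held no ACGTG, while PFKFB4 and SLC2A1 rose in every line and HK1 moved in opposite directions.

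With LKB1 knockdown more members rose than fell in every line. In HuH-28, 18 of 34 members rose and 2 fell, where a gene passes at an adjusted p under 0.05 in limma with Benjamini-Hochberg adjustment over all genes tested. In RBE 15 rose and 7 fell, in SSP-25 12 rose and 7 fell, and on the mean of the 3 lines 22 rose and 6 fell. Over all 16146 genes, the percentages that rose were 14.3% for HuH-28, 22.1% for RBE, 21.1% for SSP-25 and 27.3% on the mean, against 52.9%, 44.1%, 35.3% and 64.7% of the members. The percentages of all genes that fell were 15.5%, 18.6%, 21.1% and 25.2%, against 5.88%, 20.6%, 20.6% and 17.6% of the members. The share of members that rose was above that of all genes in every line, and the share that fell was below it in HuH-28 and close to it in the other lines. All genes tested include any whose signal reached 1 in 2 libraries, and changes of low genes pass less easily. No share of members given here was matched to all genes by signal.

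The changes were small. The median log2 fold change of the members was 0.28 for HuH-28, 0.24 for RBE and 0.13 for SSP-25, beside 0.008, 0.013 and 0.018 for all genes tested. A gene is called here when it passes and its absolute log2 fold change is above 1. By that rule 2 members were called for HuH-28, 3 for RBE, 3 for SSP-25 and 2 on the mean, or 5.88%, 8.82%, 8.82% and 5.88% of 34. Of all genes 4.04%, 7.88%, 8.39% and 4.22% were called, shares close to those of the members.

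Both LKB1 siRNA libraries lay above both control libraries in all 3 lines for 16 of 34 members, which is 47.1%, against 13.6% of all genes. For 0 members did they lie below in all 3 lines, against 13.9% of all genes. The members that passed upward in each of the 3 lines were SLC2A1, PFKFB4, LDHA, SLC16A1 and CITED2, or 5 of 34 (14.7%) against 6.94% of all genes. None passed downward in each line, against 7.44% of all genes, while 4 members (HK1, BNIP3, NDRG1 and ADM) rose in one line and fell in another, which is 11.8% against 3.70%. TMEM45A passed in no line. The 6 members called in at least 1 line lie, on GRCh38 with the annotation of GENCODE v29, at chr12:7919230-7936275 (SLC2A3), chr10:69269984-69401884 (HK1), chr3:48517684-48562015 (PFKFB4), chr17:28573115-28577264 (ALDOC), chr1:112911847-112957013 (SLC16A1) and chr6:139371807-139374620 (CITED2), and their signal sums reads over the exons of the mRNA.

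**Figure D1:**
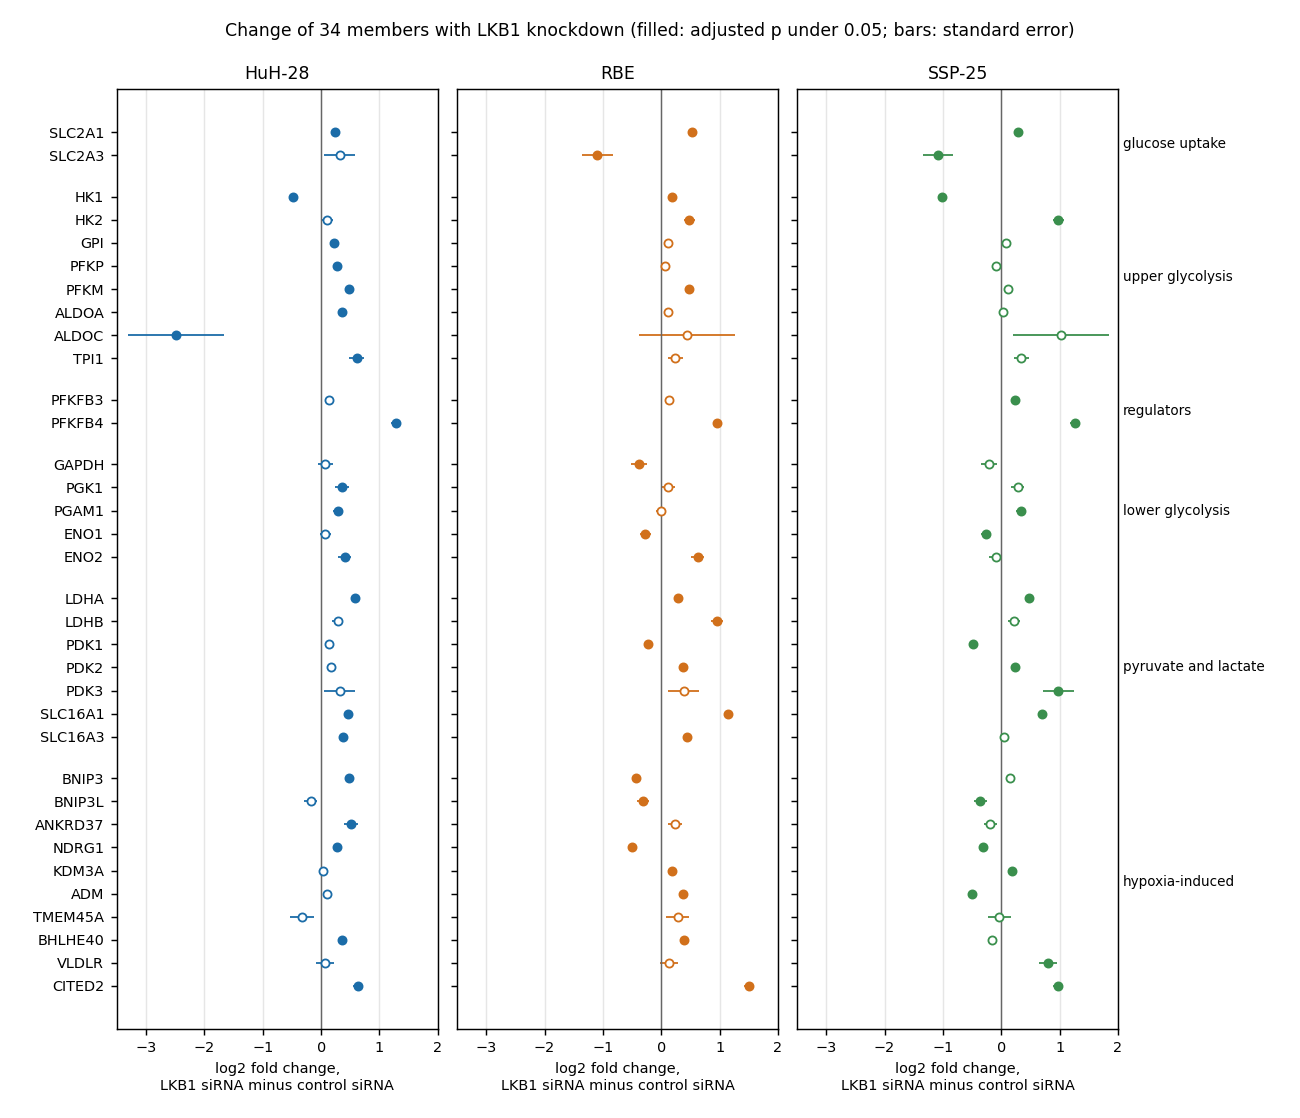
Log2 fold change (x axis, LKB1 siRNA minus control siRNA) of the 34 members in order of their step (y axis), with a panel for each line, standard errors as bars and filled points for an adjusted p under 0.05. PFKFB4 and CITED2 lie to the right of 0 in every panel, HK1 lies at -0.49 and -1.02 in HuH-28 and SSP-25 and at 0.19 in RBE, and ALDOC has the widest error.

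The glucose transporters moved apart in RBE and SSP-25, while in HuH-28 the LKB1 siRNA libraries of both lay above control. SLC2A1, the GLUT1 transporter of most dividing cells, had a signal of 2410 and 2262 in HuH-28 controls and 2786 and 2701 with LKB1 siRNA. The RBE libraries gave 406.4 and 418.9 against 569.3 and 623.3, and in SSP-25 2944 and 2995 against 3701 and 3565. The groups did not overlap in any line, and SLC2A1 rose by 0.23, 0.53 and 0.29 on the log2 scale (SE 0.056 each), with adjusted p of 0.0116, 5.45e-05 and 0.00234 by limma. SLC2A3, the high-affinity GLUT3, was 257.9 and 255.4 against 327.6 and 312.4 in HuH-28, where a value of 0.32 on the log2 scale did not pass. In RBE it was 3.165 and 6.674 against 2.268 and 1.572, and in SSP-25 91.65 and 102.8 against 43.44 and 47.63. SLC2A3 thus fell in RBE by 1.10 (adjusted p = 0.00783 by limma, SE 0.26) and in SSP-25 by 1.08 (adjusted p = 0.00815), and the change differed between lines (F test over the 3 contrasts in limma, adjusted p = 0.0257).

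Neither fall of SLC2A3 held in every fit. Without RBE LKB1 siRNA replicate 2 the RBE adjusted p by limma was 0.0652, and without SSP-25 control siRNA replicate 2 or LKB1 siRNA replicate 1 the SSP-25 values were 0.0537 and 0.0512. The RBE signals were also near the floor of the table, where a log2 fold change depends on the pseudocount (-0.31 with a pseudocount of 10). The RBE value was -0.61 without RBE control siRNA replicate 2 and -1.58 without control siRNA replicate 1, and with only the RBE libraries in the fit it did not pass (adjusted p = 0.1065 by limma). SLC2A3 shares most of its sequence with SLC2A14, so reads of the pair cannot be told apart with certainty. SLC2A1 made up between 89.6% and 99.7% of the summed signal of the pair in the 6 groups.

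The share of HK2 in the summed HK1 and HK2 signal was higher with LKB1 siRNA in every line. HK1, the housekeeping hexokinase, was 2078 and 2248 in HuH-28 controls and 1517 and 1565 with LKB1 siRNA. The RBE libraries gave 348.5 and 355 against 408.3 and 394.7, and in SSP-25 2621 and 2588 against 1294 and 1268. HK1 with LKB1 siRNA stood at 0.492 times its control in SSP-25, and it moved the other way in RBE, with no overlap of the groups in any line. The log2 fold changes were -0.49, 0.19 and -1.02 (SE 0.050 each), with adjusted p of 8.7e-05, 0.0117 and 3.17e-07 by limma. The line difference had the smallest p of the 34 members (adjusted p = 4.17e-05, F test in limma). The RBE rise did not pass without RBE control siRNA replicate 1 or RBE LKB1 siRNA replicate 1.

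HK2, the inducible hexokinase of many tumours, rose in RBE and SSP-25. It was 57.57 and 47.08 against 76.62 and 69.2 in RBE, and 173.2 and 174.2 against 327.7 and 357.7 in SSP-25, so that the groups stood apart in both. In HuH-28 the values were 437.4 and 459.1 against 494.1 and 469, and the log2 fold change of 0.10 did not pass. The rise was 0.48 in RBE and 0.98 in SSP-25 (adjusted p = 0.00307 and 3.49e-05 by limma), with a difference between lines (adjusted p = 0.00446, F test). HK2 made up 6.25% of the summed HK1 and HK2 signal in SSP-25 controls and 21.1% with LKB1 siRNA, 17.2% and 23.8% for HuH-28, and 12.9% and 15.4% for RBE. HK1 remained the larger of both in every group. HKDC1, a further hexokinase gene outside the members, was left out of these shares. Its mean signal was 49.41 with control siRNA and 26.75 with LKB1 siRNA for HuH-28, 902.1 and 899 for RBE, and 2172 and 1236 for SSP-25. In RBE it was above HK1 with either siRNA.

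Of the 8 upper-glycolysis members, 7 passed for HuH-28, 3 for RBE and 2 for SSP-25, or 87.5%, 37.5% and 25%. Of all genes 29.7%, 40.6% and 42.2% passed in either direction, so only the HuH-28 share was above that of all genes. GPI, which makes fructose 6-phosphate, had a log2 fold change of 0.21 for HuH-28, 0.11 for RBE and 0.081 for SSP-25, and the platelet-type phosphofructokinase PFKP rose by 0.27 in HuH-28 and had 0.06 and -0.09. Both passed in HuH-28 and in no other line. PFKM, the muscle-type subunit, went from 252.5 ± 0.4058 to 350.6 ± 6.134 (SD, n = 2) in HuH-28, a rise of 0.47. Its RBE signal went from 1094 ± 51.43 to 1528 ± 9.753, a rise of 0.48. In SSP-25 PFKM gave 0.12 without passing, and its change differed between lines (adjusted p = 0.00475, F test). ALDOA, the main aldolase, rose by 0.35 in HuH-28 and had values of 0.12 and 0.02 in RBE and SSP-25, also with a difference between lines (adjusted p = 0.0387). TPI1, which interconverts the triose phosphates, had the largest rise of these enzymes in HuH-28, at 0.61, with 0.24 and 0.34 elsewhere that did not pass.

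ALDOC, the brain-type aldolase, was the one member called downward in HuH-28, and the call rests on a single library. Its signal was 11.51 and 125.9 in HuH-28 controls against 5.416 and 7.631 with LKB1 siRNA. The control libraries differed more from each other than the lower of them did from the knockdown libraries. The log2 fold change was -2.49 (SE 0.82, adjusted p = 0.0447 by limma), and -0.79 (adjusted p = 0.145) without HuH-28 control siRNA replicate 2. ALDOC also failed to pass in 15 of the other alternatives, among them every one that left out a library of RBE or SSP-25. In RBE it was 189.8 and 177.3 against 246.8 and 252.6, and in SSP-25 214.8 and 102.2 against 283.9 and 320.4, with neither passing.

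PFKFB4 rose by a similar factor in every line. PFKFB3 and PFKFB4 make fructose 2,6-bisphosphate, the activator of phosphofructokinase. PFKFB4 was 64.49 and 68.94 in HuH-28 controls and 166.5 and 158.6 with LKB1 siRNA. The RBE libraries gave 35.26 and 33.68 against 69.28 and 66.02, and in SSP-25 128.4 and 121.2 against 293 and 304.5. The groups were far apart in every line, at 2.43, 1.95 and 2.39 times the control. The log2 fold changes were 1.28, 0.96 and 1.26 (SE 0.079 each) and the mean 1.17 (SE 0.046, adjusted p = 3.12e-08 by limma), without a difference between lines that passed. PFKFB3 had 0.13, 0.13 and 0.23, of which the SSP-25 value passed. Of the summed signal of the pair, PFKFB4 held 20.5% with control siRNA and 36.3% with LKB1 siRNA for HuH-28, 1.57% and 2.77% for RBE, and 19.6% and 33.3% for SSP-25.

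**Figure D2:**
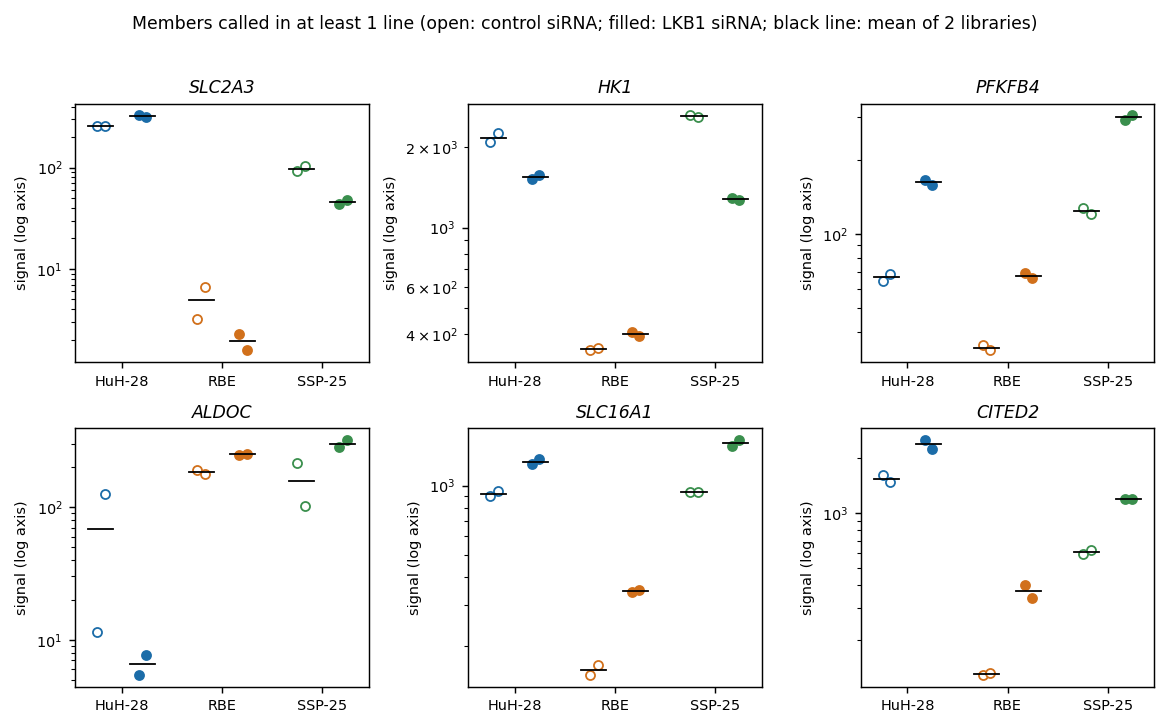
Signal (y axis, log scale) in every library of the 6 members called in at least 1 line, by line on the x axis, with open points for control siRNA, filled points for LKB1 siRNA and a black line for the mean of 2 libraries. PFKFB4, SLC16A1 and CITED2 are higher with LKB1 siRNA in all 3 lines, and the HuH-28 control libraries of ALDOC lie at 11.51 and 125.9.

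Of the 5 members of the lower, ATP-yielding steps (pyruvate kinase not among them), 3 rose and 0 fell in HuH-28. In RBE 1 rose and 2 fell, and in SSP-25 1 rose and 1 fell. The shares that rose were 60%, 20% and 20% by line, against 14.3%, 22.1% and 21.1% of all genes. Those that fell were 0%, 40% and 20%, against 15.5%, 18.6% and 21.1%. The rising shares of RBE and SSP-25 and the falling share of SSP-25 were close to those of all genes. GAPDH, which oxidizes glyceraldehyde 3-phosphate, was the highest member, with mean control signals of 32750 ± 4953 for HuH-28, 66200 ± 2863 for RBE and 61790 ± 1761 for SSP-25 (SD, n = 2). It fell by 0.38 in RBE (adjusted p = 0.0450 by limma), and gave 0.07 in HuH-28 and -0.21 in SSP-25 without passing. The RBE fall did not pass without any 1 library of RBE or SSP-25. ENO1, the main enolase, fell by 0.27 in RBE and 0.26 in SSP-25 (adjusted p = 0.0391 and 0.0447), with the same dependence on single libraries, and gave 0.07 in HuH-28. PGK1 and PGAM1, the kinase and the mutase between them, rose in HuH-28 by 0.36 and 0.28, and PGAM1 rose by 0.33 in SSP-25. In HuH-28, however, the controls of PGK1 were 7891 and 9846 and the LKB1 siRNA libraries 10110 and 12650. Library 2 was the higher one with both siRNAs. The pass of PGK1 there (adjusted p = 0.0418 by limma) was lost in 13 alternatives and held with the replicate number as a block.

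ENO2, the neuronal enolase, was the lower-step gene with the smallest p on the mean of the lines. Its signal was 632.3 and 784.4 against 842 and 1030 in HuH-28, 651 and 624.6 against 967.8 and 998.2 in RBE, and 618.7 and 570.5 against 566.4 and 545.3 in SSP-25. It rose in HuH-28 by 0.40 and in RBE by 0.62 (adjusted p = 0.01997 and 0.00131 by limma), and gave -0.10 in SSP-25, with a difference between lines (adjusted p = 0.0175, F test). The HuH-28 pass was lost without control siRNA replicate 1 or LKB1 siRNA replicate 2. Short reads of GAPDH, PGAM1, LDHA and BNIP3 can also come from or be lost to their annotated pseudogenes, of which GENCODE v29 names 62, 13, 6 and 39, so their levels are uncertain.

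LDHA and SLC16A1, of lactate formation and export, rose in every line. All 7 members that handle pyruvate and lactate passed on the mean of the lines, 6 upward and 1 downward, where 52.4% of all genes passed. One of the 6 is PDK3, whose RBE signal was near 0 and whose pass on the mean was lost with a pseudocount of 0.1 (adjusted p = 0.0667 by limma) and with quantile normalization (0.0533). LDHA, the lactate dehydrogenase subunit that favours lactate, had a signal of 14160 ± 439.1 with control siRNA and 21280 ± 912.4 with LKB1 siRNA in HuH-28 (SD, n = 2). The pair of values was 12720 ± 126.4 and 15570 ± 168.8 for RBE, and 9324 ± 237.9 and 12980 ± 509.7 for SSP-25. These are rises of 0.59, 0.29 and 0.48 on the log2 scale (SE 0.067 each), and the difference between lines did not pass. LDHB, the subunit that favours pyruvate, was 2308 and 2785 against 2825 and 3369 in HuH-28, 141.2 and 132.7 against 271.4 and 261.1 in RBE, and 14840 and 14310 against 16360 and 17570 in SSP-25. It rose by 0.96 in RBE (adjusted p = 4.66e-05 by limma), with 0.28 and 0.22 in the others that did not pass, and the change differed between lines (adjusted p = 0.00691, F test).

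SLC16A1, the MCT1 lactate and pyruvate carrier, rose in every line. It was 897.8 and 944.3 against 1239 and 1305 in HuH-28, 148.8 and 164.2 against 343.7 and 351.3 in RBE, and 942.8 and 941.5 against 1490 and 1581 in SSP-25. No group overlapped its control, and the log2 fold changes were 0.47, 1.15 and 0.70 (SE 0.060 each; adjusted p = 0.000349, 6.24e-07 and 1.24e-05 by limma). The rise was 2.22 times in RBE and 1.38 times in HuH-28, and the lines differed (adjusted p = 0.00119, F test). SLC16A3, the MCT4 carrier of glycolytic cells, was 6430 and 6388 against 8357 and 8162 in HuH-28, 276.9 and 258.6 against 366.7 and 363.9 in RBE, and 5836 and 5975 against 6222 and 5988 in SSP-25. It rose in HuH-28 by 0.37 and in RBE by 0.45, gave 0.05 in SSP-25, and differed between lines (adjusted p = 0.00528, F test).

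The pyruvate dehydrogenase kinases went in different directions. PDK1, the HIF-induced kinase, fell by 0.23 in RBE and 0.48 in SSP-25 (adjusted p = 0.0285 and 0.000458 by limma), from 297 ± 1.92 to 212.1 ± 1.422 in SSP-25, and gave 0.13 in HuH-28, with a difference between lines (adjusted p = 0.00549, F test). PDK2, the widely expressed form, rose by 0.38 in RBE and 0.24 in SSP-25 and had 0.18 in HuH-28. PDK3 was 18.5 and 15.88 against 20.55 and 22.37 in HuH-28 and 25.7 and 27.92 against 52.32 and 54.17 in SSP-25, where it rose by 0.98 (SE 0.26, adjusted p = 0.0131), a pass lost without SSP-25 control siRNA replicate 1 or either LKB1 siRNA replicate. In RBE it was listed at 0 and 0.2419 against 0.1512 and 0.472, too low for a fold change. The share of PDK1 in the summed PDK1 and PDK2 signal was 74.8% with control siRNA and 64.2% with LKB1 siRNA for SSP-25, 32.2% and 23.7% for RBE, and 39.8% and 39.1% for HuH-28.

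**Figure D3:**
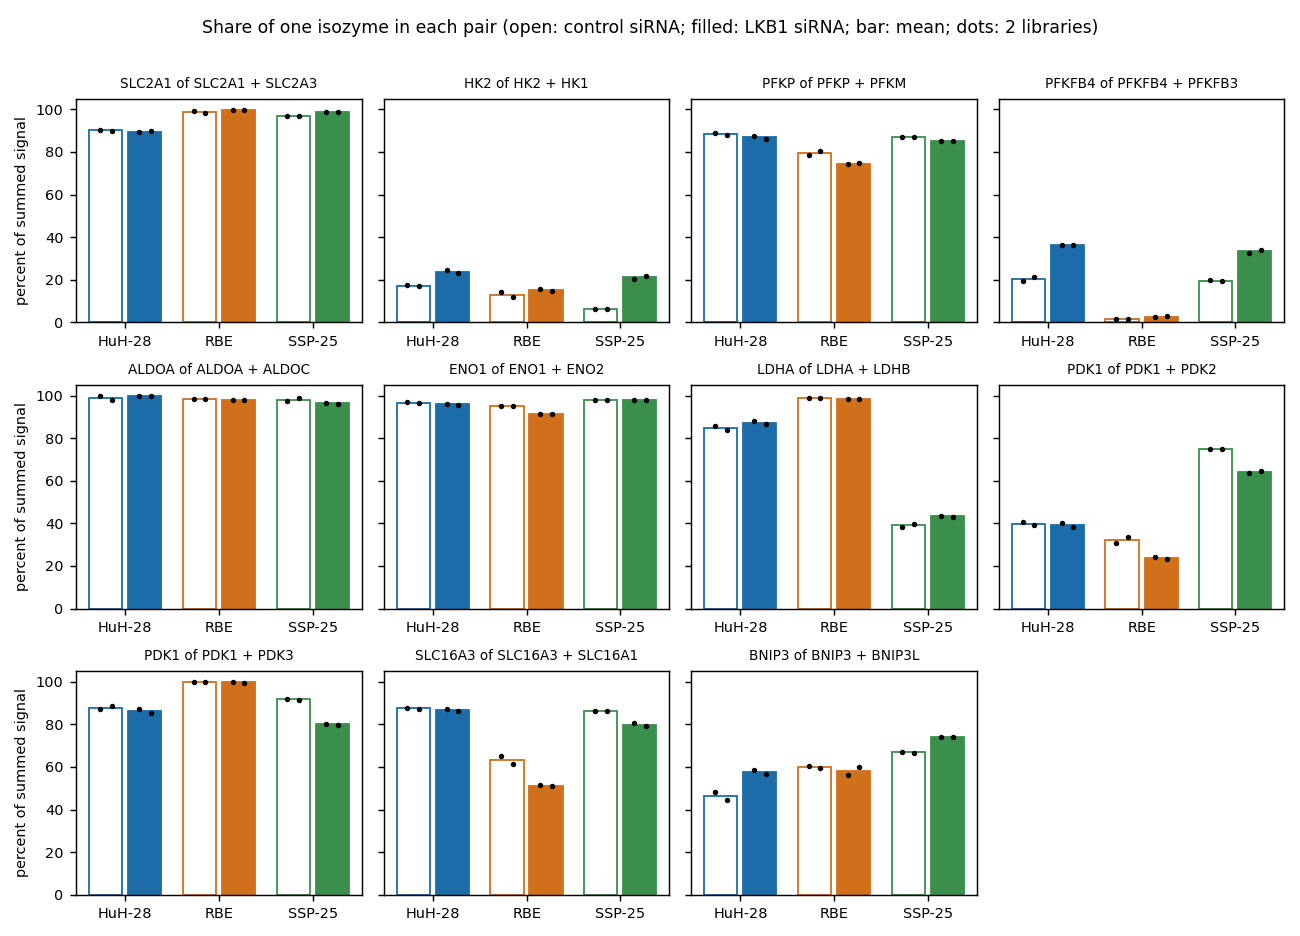
Percent of the summed signal of a pair that belongs to its first gene (y axis) by line (x axis), with open bars for control siRNA, filled bars for LKB1 siRNA and dots for the 2 libraries. HK2 in SSP-25 goes from 6.25% to 21.1%, PFKFB4 in HuH-28 from 20.5% to 36.3%, and LDHA stands at 39.0% in SSP-25 controls against 98.9% in RBE controls.

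Of the 10 genes known for hypoxic induction, 5 rose and 0 fell in HuH-28, 4 rose and 3 fell in RBE, and 3 rose and 3 fell in SSP-25. The shares that rose were 50%, 40% and 30%, against 14.3%, 22.1% and 21.1% of all genes, and those that fell 0%, 30% and 30%, against 15.5%, 18.6% and 21.1%. The medians were 0.19, 0.21 and -0.09 on the log2 scale. CITED2, which competes with HIF for the coactivator p300, had the largest of these rises on the mean of the lines. It was 1616 and 1468 against 2506 and 2254 in HuH-28, 128.4 and 131.2 against 400.2 and 338.7 in RBE, and 594 and 624.4 against 1195 and 1190 in SSP-25. The knockdown libraries were above the controls in all 3 lines, with log2 fold changes of 0.63, 1.501 and 0.97 (SE 0.084 each; adjusted p = 0.000453, 9.09e-07 and 1.4e-05 by limma), and the rise differed between lines (adjusted p = 0.00199, F test).

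Several others changed sign with the line. BNIP3, a mitophagy receptor, rose in HuH-28 from 789.3 ± 0.8301 to 1101 ± 67.11, fell in RBE from 823.7 ± 2.06 to 612.3 ± 7.053, and had 1517 ± 93.45 and 1678 ± 71.93 in SSP-25 (SD, n = 2; adjusted p of the difference between lines 0.000285, F test in limma). NDRG1, a stress-response gene of differentiated epithelium, rose by 0.27 in HuH-28 and fell by 0.50 in RBE and 0.31 in SSP-25 (adjusted p of the difference 0.00019). ADM, which encodes the vasodilator adrenomedullin, was 2485 and 2422 against 2620 and 2646 in HuH-28, 72.75 and 78.94 against 97.75 and 99.14 in RBE, and 762.3 and 740.8 against 535.2 and 522 in SSP-25. It rose by 0.38 in RBE and fell by 0.51 in SSP-25 (adjusted p of the difference 0.000153), while its HuH-28 value of 0.10 did not pass.

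The remaining hypoxia-induced members were mixed. BNIP3L, the paralogue of BNIP3, fell by 0.31 in RBE and 0.36 in SSP-25 and gave -0.18 in HuH-28, and both falls failed to pass in some fits that left out a library of the same line. BHLHE40, a clock-linked repressor, rose in HuH-28 by 0.36 and in RBE by 0.39 and gave -0.15 in SSP-25. ANKRD37, an ankyrin repeat protein, rose by 0.52 in HuH-28 and gave 0.23 and -0.19 in the others. The changes of BHLHE40 and ANKRD37 differed between lines (adjusted p = 0.00348 and 0.0274, F test). KDM3A, a histone H3K9 demethylase, rose by 0.18 in both RBE and SSP-25, each lost in 8 alternatives, and VLDLR, the very low density lipoprotein receptor, rose by 0.79 in SSP-25, while its difference between lines did not pass. TMEM45A, a transmembrane protein, was 1159 and 1375 against 927.4 and 1088 in HuH-28, 7.346 and 12.76 against 12.64 and 11.24 in RBE, and 728.2 and 718.3 against 705.8 and 705.2 in SSP-25.

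The change with LKB1 siRNA differed between the lines for 17 of 34 members, or 50%, against 28.2% of all genes (F test of the 2 differences between the 3 contrasts). These shares were not matched by signal. With the replicate number as a block the count of members was 26. The count of 17 rests on a shared estimate of the spread with 6 residual degrees of freedom. With only the 4 HuH-28 libraries in the fit, 6 members passed there (5 up, 1 down) in place of 20. Without SSP-25 LKB1 siRNA replicate 1, 12 members passed in SSP-25 in place of 19. Further HuH-28 passes were lost without control siRNA replicate 1 (GPI, PGAM1), control siRNA replicate 2 (SLC2A1, PFKP), LKB1 siRNA replicate 1 (SLC2A1, GPI, PFKP) or LKB1 siRNA replicate 2 (PGAM1). In RBE the fall of PDK1 did not pass without either control replicate or LKB1 siRNA replicate 2. In SSP-25 the rise of PDK2 did not pass without any 1 of the 4 libraries, that of PFKFB3 without control siRNA replicate 2 or LKB1 siRNA replicate 1, and that of PGAM1 without replicate 2 of either siRNA.

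The median absolute log2 difference of the members between lines in controls was 0.996, 0.85 and 1.24 for the 3 pairs of lines, against 0.32, 0.38 and 0.29 with the knockdown in each line. Of 34 members, 26 passed between RBE and HuH-28, 29 between SSP-25 and HuH-28 and 28 between SSP-25 and RBE, or 76.5%, 85.3% and 82.4%. Of all genes 77.3%, 74.8% and 73.1% passed, so most members differed as most genes did. By the rule with a log2 fold change above 1, 17, 11 and 18 were called, or 50%, 32.4% and 52.9%, against 41.9%, 38.0% and 37.4% of all genes. The contrasts of control levels use the control libraries that also enter the knockdown contrasts.

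Among the 34, 16 had their highest control mean in SSP-25, 10 in HuH-28 and 8 in RBE, and 18 had their lowest in RBE, 10 in HuH-28 and 6 in SSP-25. The largest ranges were those of TMEM45A, LDHB, SLC2A3, PDK3, ADM and SLC16A3, in all of which RBE was lowest. The mean control signal of TMEM45A was 1267 ± 152.9 for HuH-28, 723.2 ± 6.987 for SSP-25 and 10.05 ± 3.827 for RBE (SD, n = 2). LDHB was 14570 ± 378 in SSP-25, 2547 ± 337.4 in HuH-28 and 137 ± 5.968 in RBE, and each step of that order passed. LDHA, in contrast, varied by 0.60 on the log2 scale over the lines, so that it made up 98.9% of the summed LDHA and LDHB signal in RBE controls, 84.8% in HuH-28 and 39.0% in SSP-25.

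The transport and hexokinase members were also low in RBE, while HKDC1, outside the list, was not lowest there. Its mean control signal was 902.1 in RBE, 49.41 in HuH-28 and 2172 in SSP-25. SLC16A3 was 6409 ± 29.13 in HuH-28, 5905 ± 98.39 in SSP-25 and 267.7 ± 12.94 in RBE, and SLC2A3 256.6 ± 1.731, 97.21 ± 7.86 and 4.92 ± 2.481. SLC2A1, HK1, HK2 and SLC16A1 had the same lowest line, at 412.7, 351.8, 52.32 and 156.5 in RBE against 2336, 2163, 448.3 and 921.1 in HuH-28. SLC16A1 did not pass between SSP-25 (942.1) and HuH-28. ADM was 2454 ± 44.53 in HuH-28, 751.5 ± 15.22 in SSP-25 and 75.85 ± 4.378 in RBE, and PDK3 26.81 ± 1.569 in SSP-25 and 17.19 ± 1.855 in HuH-28 (not passing) and 0.121 in RBE.

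Other steps had RBE highest. PFKFB3 was 2166 ± 74.74 in RBE, 511.1 ± 12.84 in SSP-25 and 259.6 ± 12.08 in HuH-28, and PFKM 1094, 668.3 and 252.5, and all differences passed. PFKFB4 ran 124.8, 66.72 and 34.47 in SSP-25, HuH-28 and RBE. The members with the smallest ranges were GPI (1736, 1480 and 1471 in SSP-25, RBE and HuH-28), ENO2 and PGAM1. ENO2 passed in no pair of lines. GAPDH was 1.02 on the log2 scale lower in HuH-28 than in RBE, and did not pass between RBE and SSP-25.

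**Figure D4:**
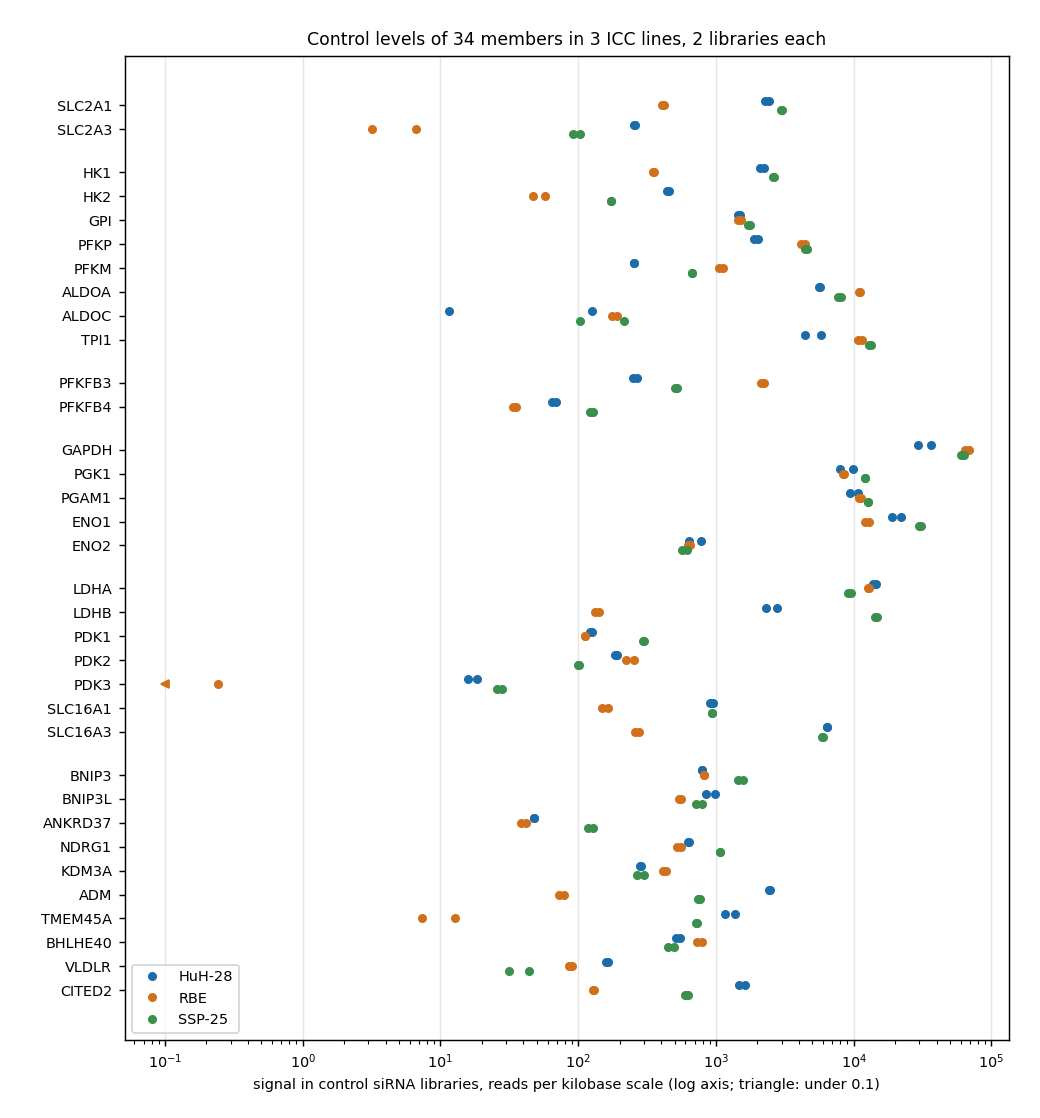
Signal in the control siRNA libraries (x axis, log scale) of the 34 members in order of their step (y axis), 2 points per line. TMEM45A, LDHB, SLC2A3, PDK3, ADM and SLC16A3 show RBE far to the left of both other lines, and GPI and ENO2 show the 3 lines close together.

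Beyond the members, the other genes of these pathways were described by lists of the same kind. Of 41 other glycolytic, gluconeogenic and pyruvate genes, 13 rose and 10 fell on the mean of the lines, or 31.7% and 24.4%, close to the 27.3% and 25.2% of all genes, with medians of 0.07, 0.003 and 0.024 in the same order of lines. PDHX, a core component of the pyruvate dehydrogenase complex, fell by 0.79, 0.98 and 1.04, GPD2, the mitochondrial glycerol phosphate dehydrogenase, by 0.62, 0.63 and 0.39, and MPC1, a subunit of the mitochondrial pyruvate carrier, by 0.38, 0.78 and 0.55. PDHX was 493.7 and 536.6 against 279.4 and 316.1 in HuH-28, 458.6 and 504 against 247.6 and 239.8 in RBE, and 565.7 and 586.4 against 288.1 and 270.9 in SSP-25. SLC2A6, a lysosomal hexose transporter, rose by 1.32 in RBE and by 0.28 in HuH-28, and gave 0.16 in SSP-25. Further called genes of the list were SLC2A2, SLC2A4, SLC2A12, PGAM2, PKLR, FBP1 and GPD1. Of these SLC2A4 and FBP1 had mean signals of at most 12.52 in every group, so that their fold changes depend on the pseudocount. PKLR, the liver pyruvate kinase, rose by 1.15 in RBE (from 13.24 to 29.24) and 1.31 in SSP-25 (from 3.433 to 9.226). PKM, the pyruvate kinase gene with the far larger signal, was not called in any line. Its mean signal was 29290 with control siRNA and 30710 with LKB1 siRNA for HuH-28, 30120 and 25940 for RBE, and 39910 and 39160 for SSP-25. SLC2A12, a further glucose transporter, rose by 1.201 in SSP-25, from 39.24 to 90.75. SLC2A2 and PGAM2 were called in SSP-25, where the libraries of LKB1 siRNA stood at 2.174 and 0.555 for SLC2A2 and at 100.2 and 34.54 for PGAM2. GPD1 fell in HuH-28 (1.896 to 0.3764) and rose in RBE (14.46 to 34.91) and SSP-25 (0.3392 to 2.318). The signals of GPD1 in HuH-28 and SSP-25, and of SLC2A2 in SSP-25, were near the floor of the table. Their fold changes there depend on the pseudocount.

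HIF1A, the oxygen-labile subunit of HIF, rose by nearly the same amount in each line. It was 4078 and 3855 against 8947 and 9007 in HuH-28, 1192 and 1218 against 2674 and 2553 in RBE, and 737.5 and 839.3 against 1731 and 1803 in SSP-25. The log2 fold changes were 1.18, 1.12 and 1.17, and the difference between lines did not pass. EPAS1, which encodes HIF-2 alpha, rose by 0.47, 1.13 and 0.28, ARNT2, a partner subunit, by 0.86 in RBE and 1.92 in SSP-25, and EGLN3, a prolyl hydroxylase that marks HIF for decay and is itself induced by hypoxia, by 1.41, 0.70 and 0.63. These changes of EPAS1, ARNT2 and EGLN3 differed between lines (adjusted p = 0.00169, 7.25e-05 and 0.0112, F test in limma). Of the 15 genes of HIF and oxygen sensing tested, 6 rose and 5 fell on the mean of the lines, or 40% and 33.3%. Of all genes 27.3% rose and 25.2% fell. The medians of the 15 genes were 0.07, -0.004 and 0.10 by line.

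Of 32 further hypoxia-induced genes, 22 rose and 5 fell on the mean of the lines. These shares were 68.8% and 15.6%, against 27.3% and 25.2% of all genes, and the medians were 0.18, 0.48 and 0.22 by line. VEGFA, the angiogenic growth factor, rose by 0.42, 0.88 and 0.65, CA12, a carbonic anhydrase, by 0.62, 1.94 and 0.81, LOX, a collagen crosslinking enzyme, by 1.41, 1.25 and 0.91, and PPFIA4, a liprin, by 1.15, 1.43 and 2.06. CA9, a carbonic anhydrase widely used as a hypoxia marker, was 1.313 and 2.183 against 16.17 and 41.37 in HuH-28, 1.942 and 3.378 against 12.54 and 9.306 in RBE, and 0.01317 and 1.049 against 10.46 and 4.9 in SSP-25. It rose in all lines from levels near the floor of the table. STC2 and HMOX1 were called upward in RBE (1.02 and 1.25). GBE1, the glycogen branching enzyme, fell by 1.74, 1.49 and 2.13 in the 3 lines. Its control and LKB1 siRNA signals were 2301 ± 86.77 and 690.5 ± 18.09 for HuH-28, 449.5 ± 13.01 and 160.1 ± 0.1566 for RBE, and 1487 ± 13.26 and 339.6 ± 25.34 for SSP-25 (SD, n = 2).

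**Figure D5:**
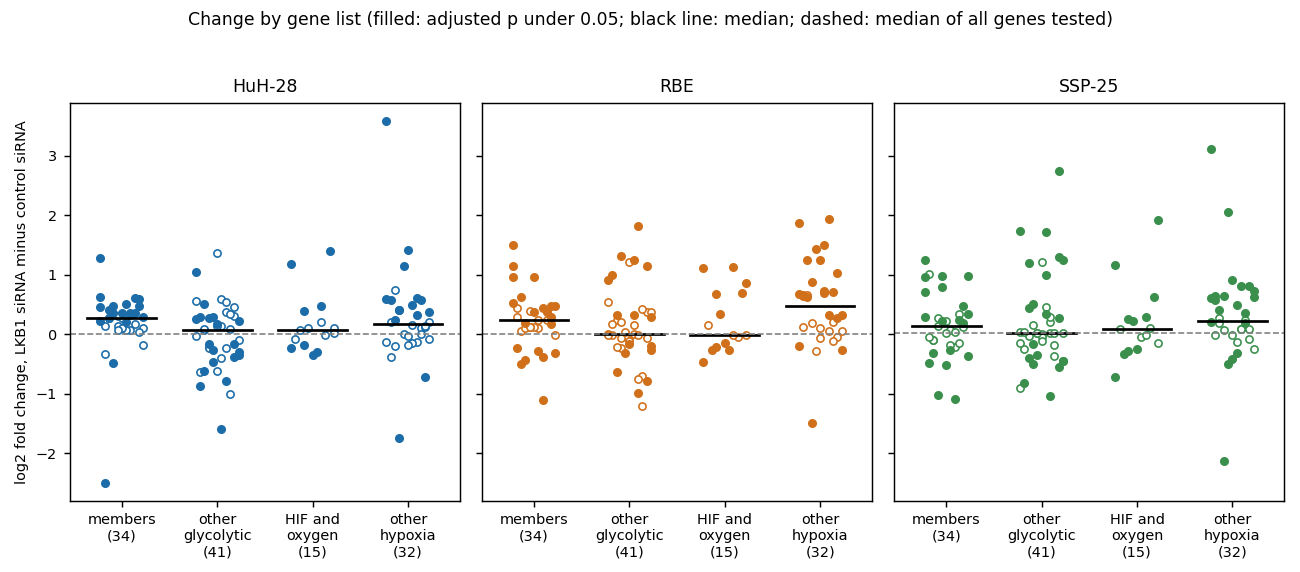
Log2 fold change (y axis, LKB1 siRNA minus control siRNA) of the members and 3 further gene lists in each line, with filled points for an adjusted p under 0.05, a black line at each list's median and a dashed line at the median of all genes tested. The medians of the members are 0.28, 0.24 and 0.13, and those of the other hypoxia-induced genes 0.18, 0.48 and 0.22.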

How the data were processed

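RNA from 12 libraries (3 ICC lines, 2 siRNAs, 2 libraries per group) was made into libraries with a kit that does not mark strand and sequenced as single reads. The authors deposited normalized reads per kilobase, a signal that is fractional and holds no counts. TopHat 1.2.0, edgeR and hg19 are named in the submitters' processing notes, and NextGENe with an older build in the study's methods, and the sources used here do not say which of them made it. Groups came from the labels. Values were analysed as log2(signal + 0.5) with limma 3.58.1 (R 4.3.3), a mean for each of 6 groups, eBayes with a variance trend, and p-values adjusted after Benjamini-Hochberg over the 16146 genes whose signal reached 1 in 2 or more libraries. The code was tested on simulated data, where planted changes of low genes and part of the planted differences between lines were missed. The study calls the library numbers tests without saying whether a test was shared by both siRNAs. Same-numbered libraries deviated together in HuH-28 (correlation 0.217) and not in RBE or SSP-25 (0.022 and -0.007), so the fit has no block, and the fit with the number as a block is an alternative. Full library values are given for members called in a line, those with the smallest p in their step, the 6 widest control ranges, and, chosen after their values were seen, HK2, HIF1A, PDHX and CA9. Of other lists, genes called in a line and the 4 with the smallest p on the mean of the lines are named, except some that are not reported here. Members and lists were chosen with earlier results of these data known. Alternatives changed the pseudocount, filter, scaling, trend, block and libraries used. Figures were drawn with matplotlib.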

Additional observations from a re-analysis of the deposited data

Results flagged for a closer look

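The change with LKB1 siRNA differed between the 3 lines for 17 of 34 members, by the F test of limma adjusted over all genes tested. Glucose entry and its first step are among them, with adjusted p of 0.0387 for SLC2A1, 0.0257 for SLC2A3, 4.17e-05 for HK1 and 0.00446 for HK2. HK1 fell in HuH-28 and SSP-25 and rose in RBE. PFKM (0.00475) and ALDOA (0.0387) rose in HuH-28 and gave 0.12 and 0.021 in SSP-25. ENO2 (0.0175) rose in HuH-28 and RBE alone by the test within lines.

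Of the genes that handle pyruvate and lactate, LDHB (0.00691) and SLC16A1 (0.00119) had their largest rise in RBE, SLC16A3 (0.00528) rose in HuH-28 and RBE, and PDK1 (0.00549) fell in RBE and SSP-25. Among the hypoxia-induced genes the differences were those of BNIP3 (0.000285), ANKRD37 (0.0274), NDRG1 (0.00019), ADM (0.000153), BHLHE40 (0.00348) and CITED2 (0.00199). BNIP3 and NDRG1 rose in HuH-28 and fell in RBE, and ADM rose in RBE and fell in SSP-25, while CITED2 rose in all 3 lines by unequal amounts.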

How the results depend on the processing

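None of the 89 passing values of single members changed direction under an alternative run on it, and values that did not pass were not followed. Only the pseudocount, the scaling and leaving out a library of the contrast itself could change a log2 fold change. The other alternatives left it as it was and altered only its p-value, so they could not have reversed a direction. Of the 89, 83 still passed with equal library medians, 84 with quantile normalization, 84 and 88 with pseudocounts of 0.1 and 10, 85 without the filter, 89 with a mean signal of at least 5, and 81 without the variance trend. With only the libraries compared, 42 of 61 still passed, and the HuH-28 count went from 20 to 6. Leaving out each library in turn, 112 of 1068 passes were lost, and the counts ran from 16 to 19 for HuH-28, 16 to 22 for RBE, 12 to 22 for SSP-25, 26 to 29 on the mean, 12 to 18 for the difference between lines, and 25 to 27, 27 to 30 and 28 to 29 for RBE against HuH-28, SSP-25 against HuH-28 and SSP-25 against RBE in controls. With 1 library left in a group, its spread was taken from the other groups. For the 61 values within a single line, most of these fits left out a library of another line. Such a fit keeps the log2 fold change and alters only the shared spread. The share lost of all 1068 therefore does not measure how far a pass depends on the libraries of its own contrast. The SSP-25 count of 12 was that without LKB1 siRNA replicate 1.

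With the replicate number as a block, all 89 passes held and the counts were 23 for HuH-28, 26 for RBE, 25 for SSP-25 and 31 on the mean, and 26 members in place of 17 differed between the lines. Same-numbered libraries did not deviate together in RBE and SSP-25, while in HuH-28 they did (correlation 0.217), and 15 of 34 members were higher in library 2 with both siRNAs. As no depth is known, low members such as PDK3 and SLC2A3 in RBE carry no counting interval.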
